A study of Homo sapiens with 4 samples.

Results

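The genes described here are 9 transcription regulators of basal and squamous epithelium: TP63, KLF5, TFAP2A, TFAP2C, GRHL1, BNC1, TRIM29, SOX2 and EHF. They were found by gene symbol among the 58735 genes of the deposited table, and all 9 were present with 1 protein-coding entry each. Basal cells are the proliferating layer of stratified epithelia such as skin, oral lining and the base of the airway. Their identity is held by the transcription factor p63, which acts with AP-2, Krüppel-like, grainyhead and ETS factors on enhancers of keratin, adhesion and barrier genes. The same regulators are hallmarks of squamous carcinoma, in which TP63 and SOX2 lie in an often amplified stretch of the long arm of chromosome 3.

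The libraries came from OVCAR8 cells, a long-established line from a human ovarian carcinoma, with 2 libraries in each of 2 groups and 15639559 to 16875353 recovered reads per library. The group shCON carried a scrambled hairpin in a GIPZ vector and is labelled WT. The group shFAM49B carried GIPZ hairpins against FAM49B, a protein that binds RAC1 and restrains actin signalling through the WAVE complex, and is labelled a knockdown. Per the labels' protocols both groups received plasmid by lipofection and were collected after 36 h, whereas the design text calls the knockdown stable, and the number of hairpins is not given in the sources used here. FAM49B itself measured 7.41 and 7.60 FPKM in shCON and 1.06 and 1.02 FPKM in shFAM49B, 7.21-fold lower in the mean (limma adjusted p = 0.00054). Values are FPKM as deposited (reads per kilobase of gene over an implied library size), given per library or as mean ± SD (n = 2). That size was 1.08 and 1.10 times the recovered reads in shCON and 0.941 and 0.919 times in shFAM49B. Folds as deposited therefore stand higher for shFAM49B than folds relative to recovered reads. TFAP2A was 1.67-fold higher as deposited and 1.43-fold relative to recovered reads, and TFAP2C 1.18-fold and 1.38-fold lower. The labels do not state whether replicates were grown as separate cultures. The p-values therefore reflect the spread among these libraries alone, and that spread may be technical.

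The labelled cell type was checked against marker lists. Of 13 markers of serous ovarian and Müllerian epithelium, SOX17 was at 0 in all 4 libraries. PAX8, MUC16 and KRT7 stayed at or under 0.112 FPKM, while KRT8 and KRT18 measured 23.2 to 41.7 FPKM in every library. MECOM averaged 3.83 FPKM in shCON and 2.77 FPKM in shFAM49B and was called lower (limma adjusted p = 0.0490). WT1 averaged 1.41 FPKM in shCON and 0.843 FPKM in shFAM49B and did not pass. In the same list KRT19, an epithelial keratin, measured 53.5 and 49.7 FPKM in shCON and 2.32 and 2.72 FPKM in shFAM49B, EPCAM was 12.4-fold lower and EMX2 1.85-fold higher. The whole list summed to 134 and 127 FPKM in shCON and to 71.1 and 72.0 FPKM in shFAM49B, and KRT19 held most of that difference. The 13 basal and squamous keratinocyte markers summed to 546 and 482 FPKM in shCON and to 39.6 and 40.5 FPKM in shFAM49B. All 11 of them that were tested were lower, beside 15.8% of all genes tested. Of the 11, COL17A1, KRT16, DSG3, SERPINB5 and CDH3 averaged under 1 FPKM in shFAM49B and entered the test through their shCON level. The test took genes averaging at least 1 FPKM over the 4 libraries, which favoured lower calls for them. The 7 genes of a neuronal filament and embryonic kidney line list summed to 84.4 and 81.3 FPKM in shCON and to 259 and 275 FPKM in shFAM49B. That sum came from IRS4, NEFL and NEFM, all 3 higher in shFAM49B, beside 26.4% of all genes tested. INA was at 0 and the other 3 genes stayed at or under 0.0552 FPKM. Markers of fibroblasts summed to 6.58 to 7.18 FPKM, of leukocytes to 1.19 to 1.82 FPKM and of endothelium to 0.190 to 0.501 FPKM. The keratinocyte and the IRS4, NEFL and NEFM sums differ between the groups in the same libraries as the regulators. In RNA of whole cultures, fewer cells of a type and less RNA per cell cannot be told apart, and the part of cell composition was not tested.

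**Figure D1:**
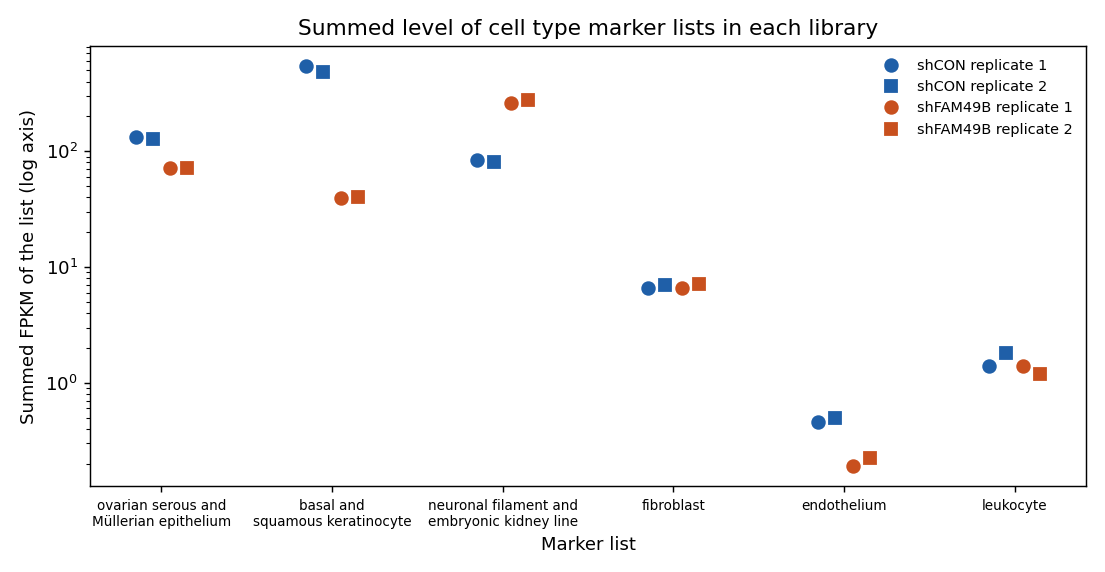
Summed FPKM (log axis) of 6 lists of cell type markers, 1 point per library, circles for replicate 1 and squares for replicate 2. The keratinocyte sum is 546 and 482 FPKM in shCON and 39.6 and 40.5 FPKM in shFAM49B, while the list with IRS4, NEFL and NEFM goes from 81.3 to 84.4 up to 259 to 275 FPKM.

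The 9 genes were chosen by their FPKM in this very contrast, shFAM49B against shCON, so their difference is described here without a test. In 8 of the 9 both shFAM49B libraries lay below both shCON libraries, and in TFAP2A both lay above. The groups did not overlap in 74.7% of the 13775 genes tested, with shFAM49B below in 31.6% and above in 43.1%. TP63, BNC1, TRIM29 and EHF were at least 8-fold lower in mean FPKM, KLF5 was 2.76-fold lower, GRHL1, TFAP2C and SOX2 were less than 2-fold lower, and TFAP2A was 1.67-fold higher. Among all genes tested, 0.639% were at least 8-fold lower, 1.28% at least 4-fold and 4.51% at least 2-fold. These shares leave out genes averaging under 1 FPKM over the 4 libraries, as BNC1 and GRHL1 did. The median log2 fold change of the 9 was -1.25 on the log2(FPKM + 1) scale, which is the value of BNC1, beside 0.05 over all genes tested. That scale understates differences of low genes, so folds below are ratios of mean FPKM. GRHL1 and BNC1 had a mean under 1 FPKM over the 4 libraries and did not enter the test. Of the other 7, limma called 4 lower and 1 higher at an adjusted p under 0.05, where 15.8% and 26.4% of all genes tested were called (42.2% in either direction), and nothing is read from that count.

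**Figure D2:**
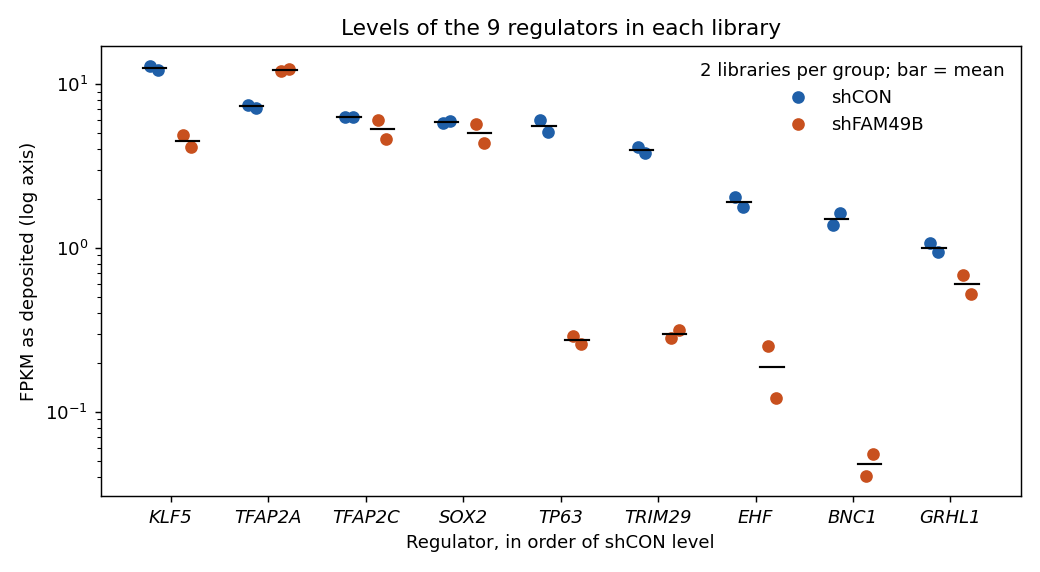
FPKM (log axis) of the 9 regulators in order of their shCON level, 2 libraries per group as points and the mean as a bar. TP63, TRIM29, EHF and BNC1 sit at or under 0.314 FPKM in both shFAM49B libraries, TFAP2A is the one gene whose shFAM49B points lie above, and the points of TFAP2C and SOX2 nearly touch.

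TP63 (ENSG00000073282, chromosome 3, 189631416 to 189897279, plus strand, GRCh38) encodes p63, the master regulator of basal identity, made as long and N-terminally shortened forms that gene-level values do not separate. It measured 6.07 and 5.08 FPKM in shCON and 0.289 and 0.260 FPKM in shFAM49B. Both shFAM49B libraries were far below both controls, and the mean went from 5.57 ± 0.700 to 0.274 ± 0.0203 FPKM, 20.3-fold lower. These values rest on 763 and 700 reads in shCON and on 33 and 29 reads in shFAM49B, which gives a 95% exact counting interval of 15.7-fold to 26.5-fold. The intervals cover counting error only. Among the 1001 tested genes that the deposited table assigns to a transcription factor family, TP63 had the largest ratio of shCON to shFAM49B. In that class 21.5% were called lower, 21.2% higher, and 5 genes (0.5%) were at least 4-fold lower, namely TP63, ZBTB7C, EHF, SOX15 and FOXQ1. The ranking covers genes above the filter only, which TP63 passed through its shCON level. Among genes under the filter, BNC1 (31.2-fold lower) and GRHL2 (24.3-fold lower) had larger ratios. The rank also describes the contrast by which TP63 was chosen. The gene entry of MIR944, a microRNA inside TP63, was at 0 in all 4 libraries. Whether these libraries capture mature microRNAs was not checked.

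BNC1 (ENSG00000169594, chromosome 15, 83255903 to 83284714, minus strand) encodes basonuclin 1, a zinc finger protein of basal keratinocytes and germ cells. Its levels were 1.38 and 1.62 FPKM in shCON and 0.0408 and 0.0557 FPKM in shFAM49B. It had the largest ratio of the 9, 31.2-fold lower, from 1.504 ± 0.169 to 0.0483 ± 0.0106 FPKM. Only 3 and 4 reads stood behind the shFAM49B values against 112 and 144 in shCON, so the counting interval is wide, 15.0-fold to 78.7-fold.

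TRIM29 (ENSG00000137699, chromosome 11, 120111275 to 120185529, minus strand) encodes a tripartite motif protein of basal epithelium that the table places in no transcription factor family. It measured 4.13 and 3.82 FPKM in shCON and 0.281 and 0.314 FPKM in shFAM49B. The groups were widely separated, with a 13.4-fold lower mean (3.97 ± 0.223 and 0.297 ± 0.0234 FPKM) and a counting interval of 10.8-fold to 16.7-fold. EHF (ENSG00000135373, chromosome 11, 34621093 to 34661057, plus strand) encodes an ETS factor restricted to epithelia. It measured 2.04 and 1.79 FPKM in shCON and 0.253 and 0.122 FPKM in shFAM49B, from 17 and 8 reads in the latter. The mean was 10.2-fold lower (1.91 ± 0.179 and 0.187 ± 0.0926 FPKM), with the widest relative spread within a group of any of the 9. Without shFAM49B replicate 1 the ratio was 15.7-fold, and without shFAM49B replicate 2 it was 7.57-fold.

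KLF5 (ENSG00000102554, chromosome 13, 73054976 to 73077542, plus strand) encodes a Krüppel-like zinc finger activator of proliferating basal cells, and it was the most abundant of the 9 in shCON. Its levels were 12.8 and 12.2 FPKM in shCON and 4.91 and 4.14 FPKM in shFAM49B. The mean was 2.76-fold lower (12.5 ± 0.441 and 4.52 ± 0.546 FPKM), and unlike the 4 genes above it kept 293 and 241 reads in the shFAM49B libraries. GRHL1 (ENSG00000134317, chromosome 2, 9951693 to 10002277, plus strand) encodes a grainyhead factor that regulates desmosomal genes. It measured 1.07 and 0.945 FPKM in shCON and 0.681 and 0.521 FPKM in shFAM49B, 1.67-fold lower, with a counting interval of 1.36-fold to 2.05-fold.

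TFAP2A (ENSG00000137203, chromosome 6, 10393186 to 10419659, minus strand) encodes AP-2 alpha, a regulator of neural crest and surface ectoderm. It measured 7.41 and 7.18 FPKM in shCON and 12.01 and 12.3 FPKM in shFAM49B. Its mean was 1.67-fold higher (7.29 ± 0.164 and 12.2 ± 0.232 FPKM), with close replicates in both groups, and 1.41-fold higher as TPM, a scaling in which every library sums to the same total. TFAP2C (ENSG00000087510, chromosome 20, 56629302 to 56639283, plus strand) encodes AP-2 gamma. It measured 6.31 and 6.30 FPKM in shCON and 6.01 and 4.65 FPKM in shFAM49B. The first shFAM49B library lay just under the controls, and the mean was 1.18-fold lower (6.31 ± 0.00996 and 5.33 ± 0.965 FPKM).

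SOX2 (ENSG00000181449, chromosome 3, 181711924 to 181714436, plus strand) encodes a high mobility group factor of stem cells and squamous progenitors. Its levels were 5.78 and 5.96 FPKM in shCON and 5.71 and 4.39 FPKM in shFAM49B, a 1.16-fold lower mean (5.87 ± 0.128 and 5.05 ± 0.935 FPKM). Without shFAM49B replicate 2 the ratios of SOX2 and TFAP2C were 1.03-fold and 1.05-fold, so their separation rests on that library. As TPM the ratios were 1.37-fold and 1.40-fold, with both shFAM49B libraries again below both controls. SOX2 and TP63 lie on the same chromosome arm and were at similar levels in shCON, where their libraries overlapped. In shFAM49B, SOX2 stood at 5.05 and TP63 at 0.274 FPKM.

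The order of levels differed between the groups. In shCON it ran from KLF5 through TFAP2A, TFAP2C, SOX2, TP63, TRIM29, EHF and BNC1 to GRHL1, and the libraries of neighbours overlapped only for SOX2 and TP63. In shFAM49B it ran from TFAP2A through TFAP2C, SOX2, KLF5, GRHL1, TRIM29, TP63 and EHF to BNC1. There the libraries overlapped for TFAP2C with SOX2, SOX2 with KLF5, and TRIM29 with TP63. The 9 levels summed to 47.0 and 44.9 FPKM in shCON and to 30.2 and 26.8 FPKM in shFAM49B, a 1.61-fold lower sum in which TFAP2A made up the largest part in shFAM49B.

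**Figure D3:**
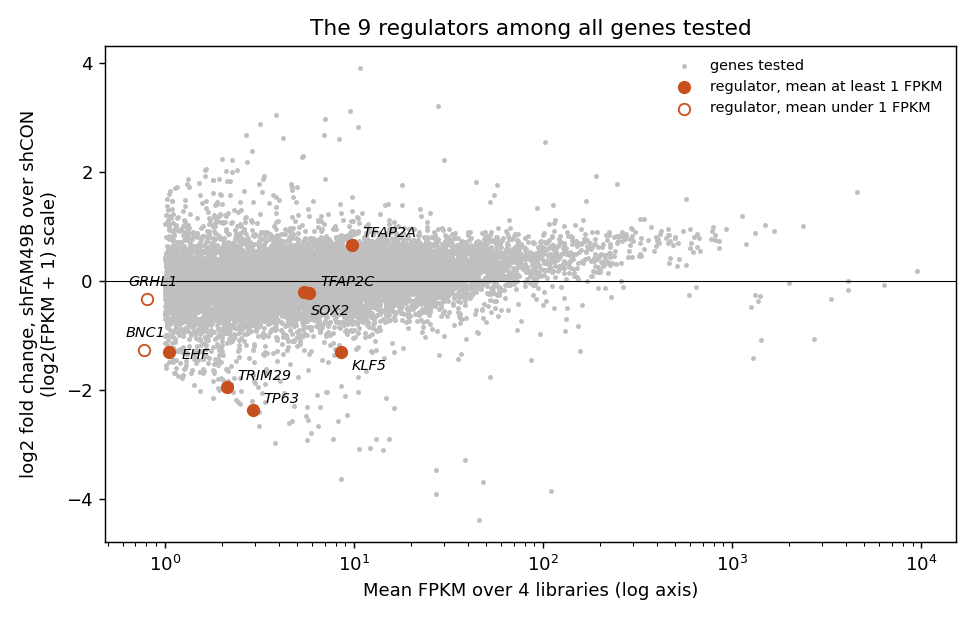
Log2 fold change (log2(FPKM + 1) scale) against mean FPKM over the 4 libraries (log axis), with all 13775 tested genes in grey and the 9 regulators in orange, open where the mean was under 1 FPKM. TP63 and TRIM29 lie near the lower edge of the cloud at -2.36 and -1.94, TFAP2C and SOX2 inside it, and TFAP2A above the zero line at 0.67.

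RefSeq promoter windows (250 bases before to 50 after a start, GRCh38.p14) were at hand for 7 of the 9 genes, with 11 windows in all, and not for TRIM29 and TFAP2C. The 4 windows printed here were picked because they hold the contrast between the genes with the lowest shFAM49B levels and the one gene that was higher. Capitals mark the GC box GGGCGG, read on both strands, to which Krüppel-like and Sp factors bind.
TP63, chr3:189631139-189631438, plus strand: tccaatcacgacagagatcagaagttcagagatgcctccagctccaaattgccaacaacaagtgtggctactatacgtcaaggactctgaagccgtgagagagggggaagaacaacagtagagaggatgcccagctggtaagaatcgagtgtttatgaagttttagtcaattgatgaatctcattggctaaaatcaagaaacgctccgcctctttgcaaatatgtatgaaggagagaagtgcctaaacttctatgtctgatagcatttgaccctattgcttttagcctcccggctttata
BNC1, chr15:83284615-83284914, minus strand: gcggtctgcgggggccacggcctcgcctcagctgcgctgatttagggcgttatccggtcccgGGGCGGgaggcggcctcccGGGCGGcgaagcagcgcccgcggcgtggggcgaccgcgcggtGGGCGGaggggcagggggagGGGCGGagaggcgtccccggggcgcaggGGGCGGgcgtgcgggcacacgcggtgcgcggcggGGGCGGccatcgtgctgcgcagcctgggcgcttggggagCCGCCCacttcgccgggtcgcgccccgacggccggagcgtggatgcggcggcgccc
EHF, chr11:34624007-34624306, plus strand: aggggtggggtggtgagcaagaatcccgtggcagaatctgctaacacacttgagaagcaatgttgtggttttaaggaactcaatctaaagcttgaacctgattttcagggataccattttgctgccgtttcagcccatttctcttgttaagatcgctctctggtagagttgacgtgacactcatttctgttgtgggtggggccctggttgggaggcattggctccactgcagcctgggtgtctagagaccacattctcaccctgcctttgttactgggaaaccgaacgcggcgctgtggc
TFAP2A, chr6:10419610-10419909, minus strand: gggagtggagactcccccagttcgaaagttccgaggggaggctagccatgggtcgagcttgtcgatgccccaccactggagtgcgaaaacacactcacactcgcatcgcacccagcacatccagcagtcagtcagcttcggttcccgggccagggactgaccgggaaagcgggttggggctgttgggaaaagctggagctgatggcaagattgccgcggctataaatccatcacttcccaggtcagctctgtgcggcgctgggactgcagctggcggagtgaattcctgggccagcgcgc
The BNC1 window held 7 GC boxes and 81.7% G and C bases, whereas the windows of TP63, EHF and TFAP2A held none, with 43.7%, 51.3% and 61.7% G and C. A GC box occurred in 45.0% of all 35116 promoter windows of that length, whose median G and C content was 58.7%. The GRHL1 window held 3 GC boxes, the second KLF5 window and the second BNC1 window 2 each, and the SOX2 window 1. A TATA box (TATAAA, both strands, in 11.5% of all windows) lay 30 bases before the TFAP2A start. The TP63 window held these letters on the opposite strand, beginning at base 45 after the start, and the first KLF5 window held a match farther upstream. The TP63 window lies at the upstream end of the gene, and any start inside the gene was not searched. The starts of the first and second EHF windows lie 3164 and 11473 bases downstream of the deposited gene start.

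All 11 windows were also searched for motifs of the members' own families and of other factors. The AP-2 motif GCCNNNGGC, which overlapped no GC box, occurred in the windows of BNC1 (1 in the first and 2 in the second) and SOX2 (1), beside 23.2% of all windows. The SOX motif ACAATG occurred once in the first KLF5 window and once in the second EHF window (10.8% of all windows). No match was found in the 11 windows for the grainyhead motif AACCGGTT (0.134% of all windows), the ETS motif CCGGAA (17.2%), the AP-1 motif TGANTCA with C or G at N (4.95%), the SNAI and ZEB E-box CAGGTG (20.6%) or the core of the p63 response element (4.79%). All motifs were read on both strands. A match describes letters in a window and is not a measured binding site.

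Neighbouring genes were examined next, since they share chromosomal surroundings with the regulators but took no part in choosing them. Of the 18 nearest tested genes, 1 on each side at 12.1 to 1958 kb, 4 were lower, 3 were higher and 11 did not pass (limma), with a median log2 fold change of -0.03. Over all genes tested 15.8% were lower and 26.4% higher, with a median of 0.05, so the neighbours' counts lay near the background. P3H2, a collagen prolyl hydroxylase gene 59.4 kb from TP63, fell from 3.87 and 4.32 to 2.19 and 1.74 FPKM (log2 fold change -0.78, SE 0.11, limma adjusted p = 0.00574). LPP, on the other side of TP63, measured 2.35 and 2.27 FPKM in shCON and 2.77 and 2.37 FPKM in shFAM49B and did not pass. Both neighbours of TFAP2C rose: BMP7, a bone morphogenetic protein, went from 13.1 ± 0.291 to 20.1 ± 1.69 FPKM (limma adjusted p = 0.00443) and RTF2, a replication fork protein, from 13.7 ± 0.433 to 18.3 ± 0.981 FPKM (0.00861 in limma). CAT, the catalase gene next to EHF, rose 1.34-fold (limma adjusted p = 0.0104), while APIP on the other side did not pass. RTF2 and CAT did not pass as TPM (limma adjusted p = 0.0693 and 0.133) or relative to recovered reads (0.0542 and 0.105).

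NECTIN1, an adhesion receptor gene 382 kb from TRIM29, fell 1.40-fold (limma adjusted p = 0.0306). HDGFL3 beside BNC1 and SLC35B3 beside TFAP2A fell 1.30-fold and 1.29-fold (0.0286 and 0.0414 in limma). HDGFL3 and SLC35B3 did not pass when any single library was left out (adjusted p = 0.0679 to 0.142 and 0.0589 to 0.194), nor did NECTIN1 without shCON replicate 1, shCON replicate 2 or shFAM49B replicate 1 (0.0761 to 0.136), nor CAT without shCON replicate 1 (0.0561) or shFAM49B replicate 1 (0.0531). Neither the neighbours of KLF5 (PIBF1 and KLF12), GRHL1 (AC010969.2 and AC104794.2) and SOX2 (DNAJC19 and ATP11B) nor GCNT2, SH3GL3 and OAF passed. Genes overlapping a regulator were low: TFAP2A-AS1, the antisense transcript of TFAP2A, measured 1.54 and 1.21 FPKM in shCON and 1.81 and 1.501 FPKM in shFAM49B and did not pass, TFAP2A-AS2 stayed at or under 0.868 FPKM, and SOX2-OT, whose gene spans SOX2, stayed at or under 0.0190 FPKM. The library kit named in the labels does not mark strand, so reads of TFAP2A and of its antisense partners cannot be told apart where they overlap.

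**Figure D4:**
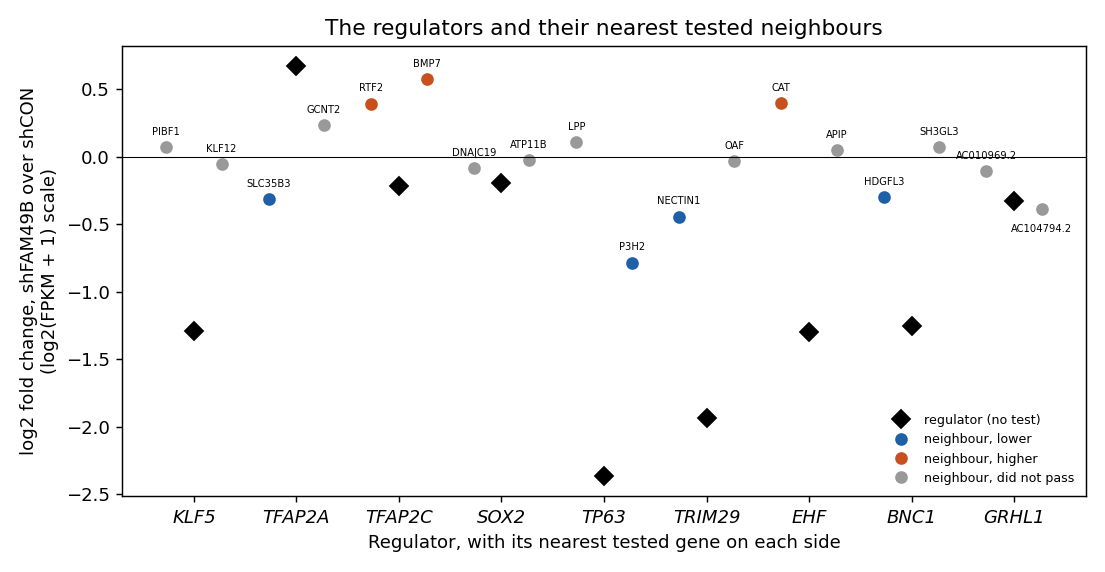
Log2 fold change (log2(FPKM + 1) scale) of each regulator as a black diamond, with its nearest tested gene on the lower and higher coordinate side as points coloured by their call. The diamonds of TP63, TRIM29, EHF, BNC1 and KLF5 lie at -1.25 or lower, while the lowest neighbour, P3H2, lies at -0.78.

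The closest relatives of the regulators by family were described next. Of 17 genes in that list 6 were tested, of which 4 rose, 1 fell and 1 did not pass (limma), with a median log2 fold change of 0.40. Over all genes tested 26.4% were called higher and 15.8% lower. TP73, a paralog of TP63, rose from 4.88 ± 0.387 to 6.52 ± 0.257 FPKM (limma adjusted p = 0.0199), beside the 20.3-fold lower TP63. Among the Krüppel-like factors, KLF6 rose 2.29-fold from 9.37 ± 0.0236 to 21.5 ± 0.613 FPKM (limma adjusted p = 0.00104). KLF2 rose 1.87-fold (0.00993 in limma, and 0.056 without shCON replicate 1 and 0.0585 without a filter). KLF4, a factor of suprabasal differentiation, fell 1.77-fold, from 5.98 and 7.05 to 3.67 and 3.71 FPKM (limma adjusted p = 0.00485), and KLF7 did not pass.

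The remaining 11 relatives were too low to test. TFAP2B and TFAP2D were at 0 in all 4 libraries, and TFAP2E, SOX1 and SOX3 were likewise not tested. The grainyhead genes GRHL2 and GRHL3, chosen for mention after their values were seen, went with GRHL1: GRHL2 measured 1.12 and 0.759 FPKM in shCON and 0 and 0.0772 FPKM in shFAM49B, and GRHL3 measured 1.05 and 0.837 FPKM against 0.364 and 0.170 FPKM. BNC2, the paralog of BNC1 and likewise picked out afterwards, was at 0.333 and 0.258 FPKM in shCON and at 0.672 and 0.545 FPKM in shFAM49B, the reverse order of BNC1. ELF3, an ETS gene close to EHF, stood at 0.338 and 0.376 FPKM in shCON and 0.0544 and 0.0743 FPKM in shFAM49B.

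Among other regulators of epithelial identity, 24 genes were listed and 12 tested. Of these, 6 fell, 2 rose and 4 did not pass, beside 15.8% lower and 26.4% higher over all genes tested. The median log2 fold change was -0.24. ESRP1, a splicing regulator of epithelial isoforms, fell from 2.43 and 1.79 to 0.120 and 0.0822 FPKM (limma adjusted p = 0.0038). SOX15, a SOX gene of basal keratinocytes, fell 9.08-fold from 3.30 ± 0.889 to 0.363 ± 0.145 FPKM (0.00338 in limma), beside the 1.16-fold lower SOX2. DLX3, a homeobox gene of hair and epidermis, fell 2.17-fold (0.00281 in limma). The 2 that rose, named afterwards, were TP73 and the homeobox gene DLX5 (1.51-fold, limma adjusted p = 0.0199). Neither passed as TPM or relative to recovered reads.

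Known p63 targets of basal epithelium were taken next. Of 22 genes, 19 were tested, of which 16 fell, 2 rose and 1 did not pass, with a median of -1.07. Of the 16, COL17A1, DSG3, FERMT1 and PKP1 averaged under 1 FPKM in shFAM49B and entered the test through their shCON level. The filter favoured lower calls for them. Over all genes tested 15.8% were called lower and 26.4% higher. KRT5 and KRT14, the keratin pair of basal cells, fell 15.4-fold and 11.1-fold (limma adjusted p = 0.000166 for both). COL17A1, a hemidesmosome collagen, fell from 11.6 and 9.45 to 1.06 and 0.898 FPKM, and S100A2, a calcium-binding protein of basal cells, from 20.2 and 19.4 to 1.83 and 1.15 FPKM (0.000778 and 0.000761 in limma). The 3 exceptions, named after their values were seen, were FRAS1 (1.53-fold higher), the Notch ligand gene JAG2 (1.18-fold higher) and FGFR2, which measured 3.41 ± 0.169 and 3.52 ± 0.516 FPKM. With any single library left out, 0 to 1 of these targets were called higher. Keratin genes have near-identical copies, so the division of reads between KRT14 and its relatives is uncertain.

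Of 27 genes of stratified differentiation 10 were tested, of which 6 fell, 4 did not pass and 0 rose in limma. With voom on recovered reads 0 rose as well. Over all genes tested 15.8% were called lower and 26.4% higher. Of the 6 that fell, only KRT13 averaged at least 1 FPKM in shFAM49B. The others entered the test through their shCON level, so the filter favoured lower calls. The median of the list was -1.36. That median was -0.47 without a filter and -0.16 with a filter at 5 FPKM, where other numbers of its genes were tested, and -2.30 with a pseudocount of 0.1. KRT13, a keratin of mucosal linings, fell 13.7-fold from 50.6 ± 4.22 to 3.69 ± 0.304 FPKM (limma adjusted p = 0.000166). PPL, the cornified envelope gene periplakin, fell 7.53-fold, and SPRR1B went from 6.98 and 10.1 to 0.842 and 0.323 FPKM (0.00203 and 0.00204 in limma). KLK5, a protease of the outer epidermis, went from 4.63 and 4.48 to 0.395 and 0.0809 FPKM (0.00167 in limma). SPRR1B has a near-identical copy in SPRR1A, so its reads are uncertain.

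**Figure D5:**
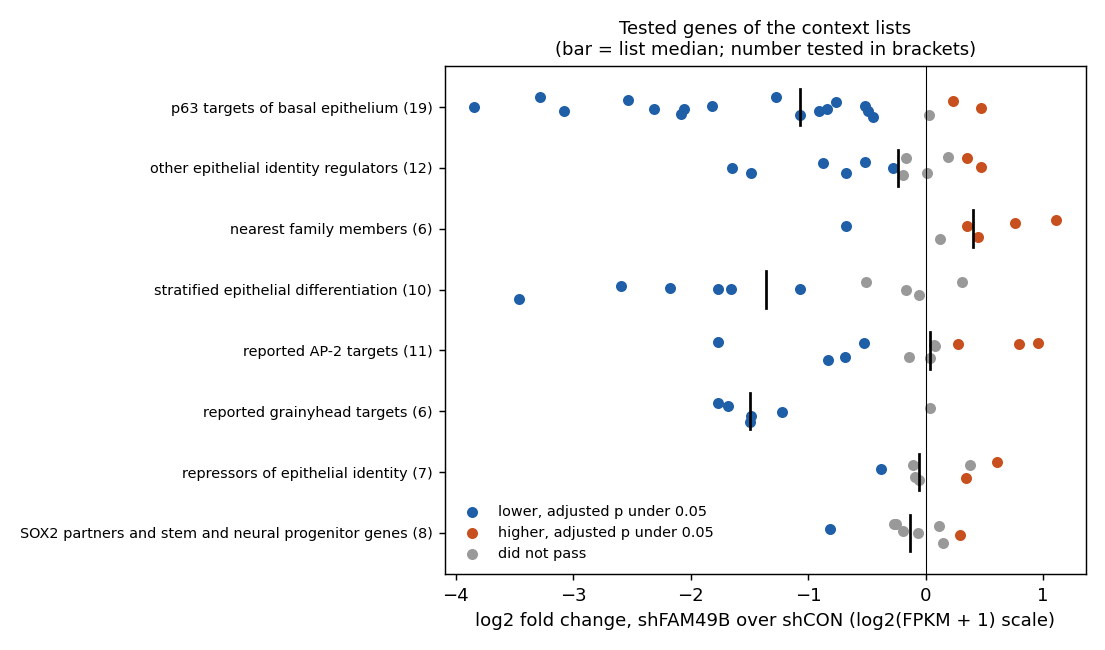
Log2 fold changes (log2(FPKM + 1) scale) of the tested genes of 8 lists, coloured by their limma call, with the list median as a bar and the number tested in brackets. The p63, differentiation and grainyhead lists have medians of -1.07, -1.36 and -1.49, and the medians of the lists for AP-2 targets, repressors and SOX2 partners lie within 0.13 of 0.

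Of 12 reported grainyhead targets 6 were tested, of which 5 fell and ERBB3 did not pass, with a median of -1.49 (-0.77 without a filter, -2.93 with a pseudocount of 0.1). Besides ESRP1, these were CDH1, the E-cadherin gene (10.2-fold lower, limma adjusted p = 0.00167), the protease inhibitor gene SPINT1 (7.27-fold lower, 0.00199 in limma), EPCAM (2.94 and 2.96 against 0.129 and 0.345 FPKM, 0.00224 in limma) and, named afterwards, RAB25 (1.85 and 2.01 against 0.0384 and 0.511 FPKM, 0.0112 in limma). All 5 grainyhead targets that fell averaged under 1 FPKM in shFAM49B and entered the test through their shCON level. The filter thus favoured lower calls in that list. Over all genes tested 15.8% were called lower and 26.4% higher. Of 13 reported AP-2 targets 11 were tested, of which 3 rose, 4 fell and 4 did not pass, and nothing is read from these counts. KIT and IGFBP5 rose 1.93-fold and 2.13-fold (0.00234 and 0.00225 in limma), while MMP2 and CDH1 fell 1.95-fold and 10.2-fold (0.00201 and 0.00167 in limma). The AP-2 median was 0.04, and it was -0.17 as TPM, -0.13 relative to recovered reads and -0.09 after quantile normalization. Without a filter it was -0.08 and with a filter at 5 FPKM -0.03.

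Of 10 repressors of epithelial identity, 7 were tested, of which 2 rose, 1 fell and 4 did not pass. These counts lay near the shares over all genes tested, 26.4% higher and 15.8% lower. The median of the list was -0.05. That median turned to 0.38 with a filter at 5 FPKM, 0.03 after quantile normalization, 0.03 without shCON replicate 2 and 0.01 without shFAM49B replicate 2. TWIST2 rose 1.59-fold from 7.46 ± 0.0366 to 11.9 ± 0.279 FPKM (limma adjusted p = 0.00252) and SNAI2 fell 1.33-fold from 15.7 ± 0.457 to 11.8 ± 0.540 FPKM (0.00854 in limma, and 0.0518 without shCON replicate 2). SNAI1 rose 1.34-fold (0.0221 in limma), a call lost when any single library was left out (0.0574 to 0.124), without a filter (0.0739), as TPM (0.203), relative to recovered reads (0.171) and with voom (0.0605). TWIST1 measured 4.23 ± 0.788 and 5.82 ± 1.39 FPKM and did not pass (limma adjusted p = 0.136), whereas it passed with voom (0.0368).

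Of 17 partners of SOX2 and genes of stem and neural progenitors, 8 were tested, of which 1 rose, 1 fell and 6 did not pass, with a median of -0.13. Over all genes tested 26.4% were called higher and 15.8% lower. NES, the nestin gene, fell from 6.70 and 6.41 to 3.04 and 3.59 FPKM (limma adjusted p = 0.00316). POU3F2, a neural POU factor that pairs with SOX2, rose 1.28-fold (0.0405 in limma), which did not pass when any single library was left out (0.072 to 0.195), without a filter (0.113), as TPM (0.395) or relative to recovered reads (0.334). LIN28B (9.10 ± 1.16 and 7.47 ± 0.991 FPKM) and SOX21 (1.22 ± 0.0506 and 0.844 ± 0.0985 FPKM) did not pass (limma adjusted p = 0.143 and 0.196). LIN28B did pass as lower as TPM (0.0342), relative to recovered reads (0.0377) and with voom (0.0148). NANOG and SOX11 were at 0 in all 4 libraries.

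The 5 protein-coding genes nearest to TP63 over the 4 log2(FPKM + 1) values were ATP6V0D2, LAD1, VCX2, TNS4 and RHOD, at Euclidean distances of 0.213 to 0.353. ATP6V0D2, for example, measured 5.24 and 5.53 FPKM in shCON and 0.260 and 0.289 FPKM in shFAM49B. VCX2 belongs to a family of near-identical copies, so its reads are uncertain. The 5 nearest to SOX2 were PIKFYVE, CENPK, ZNF184, PIGG and CETN3, at distances of 0.0381 to 0.113. PIKFYVE measured 5.83 and 6.10 FPKM in shCON and 5.82 and 4.39 FPKM in shFAM49B. Like SOX2 it was lowest in shFAM49B replicate 2, which follows from choosing it by these values. With 4 libraries such likeness covers little more than the level and the difference between the groups.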

How the data were processed

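Gene levels of 2 shCON and 2 shFAM49B libraries were analysed. FPKM values were deposited by the authors. No aligner or counter is named in the sources used here. GRCm38 and mm10, both mouse builds, stand in the submitters' processing notes, but all 58735 identifiers and their coordinates are those of human GENCODE release 29, so GRCh38 is used. Multiplying FPKM by gene length gave whole multiples of 1 step in 100% of values above 0 (tolerance 0.001 of a step), which gave the reads. The implied library sizes were 1.08 and 1.10 times the recovered reads in shCON and 0.941 and 0.919 times in shFAM49B. A single read in a 1 kb gene is worth 0.0541 to 0.0668 FPKM.

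The test, limma 3.58.1 under R 4.3.3, used log2(FPKM + 1) of the 13775 genes averaging 1 FPKM or more, two-sided, with a mean-variance trend and Benjamini-Hochberg adjustment over all tested genes (threshold 0.05). A gene under 1 FPKM in shFAM49B could enter the test only through its shCON level. Among genes near the filter that are high in shCON, this favours lower calls. Residual degrees of freedom were 2, with a prior of 3.32. Gene coordinates and lengths were used as deposited. The procedure was tested on simulated data. Over genes with at least 20 reads, the chi-square per gene between replicates averaged 4.02 in shCON and 3.78 in shFAM49B. Between groups it averaged 59.6 to 70.5. Replicates thus differed by more than counting error, which the counting intervals leave out. These values cannot show whether replicates are separate cultures, because a difference between groups would exceed technical repeats too. Each library was kept as 1 sample. Named genes were the 9 regulators, FAM49B, up to 4 genes of smallest p per list, the neighbours and the 5 nearest patterns of TP63 and SOX2. The regulators and the lists were chosen with earlier results of these data known. The 8 context lists share genes: 17 of their 125 genes stand in more than 1. That count leaves out the marker lists. The keratinocyte markers share KRT5, KRT14, DSG3, DSC3, COL17A1 and S100A2 with the p63 targets. EPCAM is in both the ovarian and the grainyhead list. Some members of the lists are not reported here. Other scalings, filters, a pseudocount of 0.1, voom and left-out libraries were tried.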

Additional observations from a re-analysis of the deposited data

How the results depend on the processing

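As deposited, 3642 genes were higher and 2170 lower (62.7% of calls higher). The split moved with the scaling: 1597 and 4362 as TPM (26.8%), 1722 and 4173 relative to recovered reads (29.2%), and 2647 and 2446 after quantile normalization (52.0%), with the median of all genes shifted by -0.24, -0.19 and -0.02. Without a filter the counts were 2185 and 1378, and with a filter at 5 FPKM 1322 genes were lower and 70.7% of calls were higher. Leaving out 1 library gave 1897 to 2495 higher and 1027 to 1529 lower. The median log2 fold change of the 9 regulators was -1.25, and -1.45 with a pseudocount of 0.1, -1.65 as TPM, -1.33 relative to recovered reads and -1.47 with voom, an alternative chosen after seeing the data. It stayed negative under all alternatives run, and each of the 9 kept its direction under them. The filters do not touch that median. The planned count test on the recovered reads was not run, because the deposited unit is FPKM.

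Counts of list members moved by over 1.5 times as follows. Among p63 targets, members higher went from 2 to 1 without a filter, with a filter at 5 FPKM, as TPM, relative to recovered reads and after quantile normalization, and to 0 to 1 with 1 library left out. Among other epithelial regulators, members higher went from 2 to 0 without a filter, as TPM and relative to recovered reads, to 1 at 5 FPKM and to 0 to 1 with 1 library left out, and members lower went from 6 to 3 at 5 FPKM. Among family members, those higher went from 4 to 2 and those lower from 1 to 2 without a filter, and those higher to 2 to 4 with 1 library left out. At 5 FPKM the differentiation list kept 1 lower call of 6 and the grainyhead list 0 of 5, since fewer of their genes were tested. Differentiation genes higher were 0 to 1 with 1 library left out. Repressors higher went from 2 to 1 without a filter, at 5 FPKM, as TPM, relative to recovered reads and with any 1 library left out (1 to 1), and those lower were 0 to 1 with 1 left out. Among SOX2 partners, members higher went from 1 to 0 without a filter, at 5 FPKM, as TPM, relative to recovered reads and with any 1 library left out (0 to 0), and to 2 with voom. SOX2 partners lower went from 1 to 0 at 5 FPKM, to 4 as TPM and relative to recovered reads, and to 2 with voom. The cause was not tested. The other counts stayed within 1.5 times.

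Same-numbered libraries did not deviate together (correlation -0.01 over 13775 genes). With the replicate number as a block, 3429 genes were higher and 2036 lower, and SOX2 partners lower went from 1 to 2. Under the block TWIST1 and LIN28B also passed (adjusted p = 0.0225 and 0.0400), SLC35B3 did not (0.0611), and repressors higher went from 2 to 3. List medians moved by over 1.5 times as TPM for other epithelial regulators (-0.24 to -0.50), family members (0.40 to 0.19) and SOX2 partners (-0.13 to -0.38). Relative to recovered reads they were -0.43, 0.20 and -0.33. As TPM the differentiation (-1.36 to -2.23), grainyhead (-1.49 to -2.62) and repressor (-0.05 to -0.28) medians moved as well. The repressor median was also lower relative to recovered reads (-0.20). Without a filter family members were at 0.041, SOX2 partners at -0.041, differentiation at -0.47 and grainyhead at -0.77. With voom differentiation, grainyhead and repressors were at -2.44, -3.42 and -0.084. The AP-2, repressor and SOX2 partner medians, near 0, also moved with single libraries left out. Of the 50 tested single genes named, 18 of 576 alternative values changed sign, all of them in neighbours that did not pass. These were LPP (-0.085 as TPM, -0.052 relative to recovered reads), PIBF1 (-0.15, -0.12, and -0.022 to 0.16 with 1 library left out), SH3GL3 (-0.14, -0.11, and -0.011 to 0.16) and APIP (-0.17, -0.13, and -0.12 to 0.21). KLF12 was 0.012 after quantile normalization, and with 1 library left out KLF12 reached 0.028, OAF 0.048, DNAJC19 0.018 and ATP11B 0.082. Depth limits BNC1 and EHF most, with 3 to 17 reads per shFAM49B library.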
